A study of Pinus elliottii with 16 samples.

Results

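The features described here are 46 of the 8949 annotated loci and transcript models measured in slash pine cambium, chosen because their counts were lower with a resin stimulant paste at day 5 and less so at day 15. They were picked by measured values. A feature had to reach a normalized fragment count of 10 in at least 4 of the 16 libraries, which 5856 features did. All 4 paste libraries of day 5 had to lie below all 4 control libraries of day 5, and the mean log2(value + 1) of paste minus control had to be -1 or less at day 5 and above -0.7 at day 15. Of 171 features that met the day 5 criteria, 46 (26.9%) met the day 15 criterion as well and the other 125 did not. The values that chose the members are given as a description, without a test.

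RNA was sequenced from vascular cambium of slash pine (Pinus elliottii) trees aged 16 years, 4 libraries for each treatment and day. In the paste groups the bark was stripped and a streak of paste with 3% Ethrel (2-chloroethylphosphonic acid, which releases ethylene), 20% sulfuric acid and rice husk powder was put on the wound, and tissue was taken at day 5 or day 15. In the control groups the bark was stripped and no paste was put on, with tissue taken on the same days. All trees, controls included, had been tapped with conventional paste every fortnight for a year before, so the controls were neither unwounded nor untouched by earlier paste. The tissue came from just above the wound, and the labels speak of 4 trees chosen at random without saying which libraries came from which tree. Acid and Ethrel were given together, so their parts cannot be told apart.

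Vascular cambium is the layer of dividing cells that makes wood on its inner side and phloem on its outer side. In pines it also gives rise to resin ducts, and wounding and ethylene are known to raise the number of ducts and the flow of resin, which is why tappers use such pastes. Ethylene is made by plants after injury, is sensed by receptors in the endoplasmic reticulum and acts through transcription factors that switch genes on or off. The files pair no identifier with a gene name, a function, a length or a position. What the members encode is therefore not given here, cambium markers could not be looked up, and counts of different members are not set against each other per length.

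Depth ranged from 3324244 to 5203434 estimated fragments per library, with 6351 to 6901 features above 0. Replicate 1 of paste at day 5 and replicate 1 of paste at day 15 correlated almost perfectly (Pearson r = 0.986 across the 5856 features), against at most 0.945 in the other 119 pairs of libraries. For paste day 15 replicate 3 the mean correlation was 0.901 with paste at day 5 but 0.763 within its group. Both points touch a choice that separates day 5 from day 15, so values are given library by library and without these libraries where that moved them.

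At day 5 the 46 members had a median difference of -1.40 on the log2(value + 1) scale, paste minus control, a 2.63-fold lower level. The differences ran from -4.59 to -1.02. They were of at least 2 on the log2 scale in 9 members, between 1.5 and 2 in 10 and under 1.5 in 27. Over all 5856 features the median difference was -0.05. By the choice of members, the groups did not overlap in any of the 46, where 6.49% of all features lay wholly below control. In bulk tissue, fewer cells of a type and less RNA per cell cannot be told apart.

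A linear model with an intensity trend (limma, all 16 libraries, Benjamini-Hochberg adjusted p below 0.05) called 4 of the 46 members lower at day 5, and 0 higher, beside 0.444% of all features called lower and 0.188% called higher. This contrast chose the members, so nothing is read from that count. The standard error of a member's day 5 difference was 0.22 to 1.23 on the log2 scale, with a median of 0.58. The count often moved with the calls over all features, which were 37 in either direction in this fit, but not in every alternative. It was 0 without any 1 of the day 5 controls (8 to 10 of all features called) or without paste day 5 replicate 2 (7 of all features). It was 9 without paste day 15 replicate 3 (170 of all features) and 17 with library quality weights (421 of all features). Of the 4 called members, 1 had the most negative difference of the 46, and 1 had a difference of -1.12 with little spread. Another had the lowest mean count of the 46, with 0 to 1.73 in the day 5 paste libraries, and a positive difference at day 15.

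**Figure D1:**
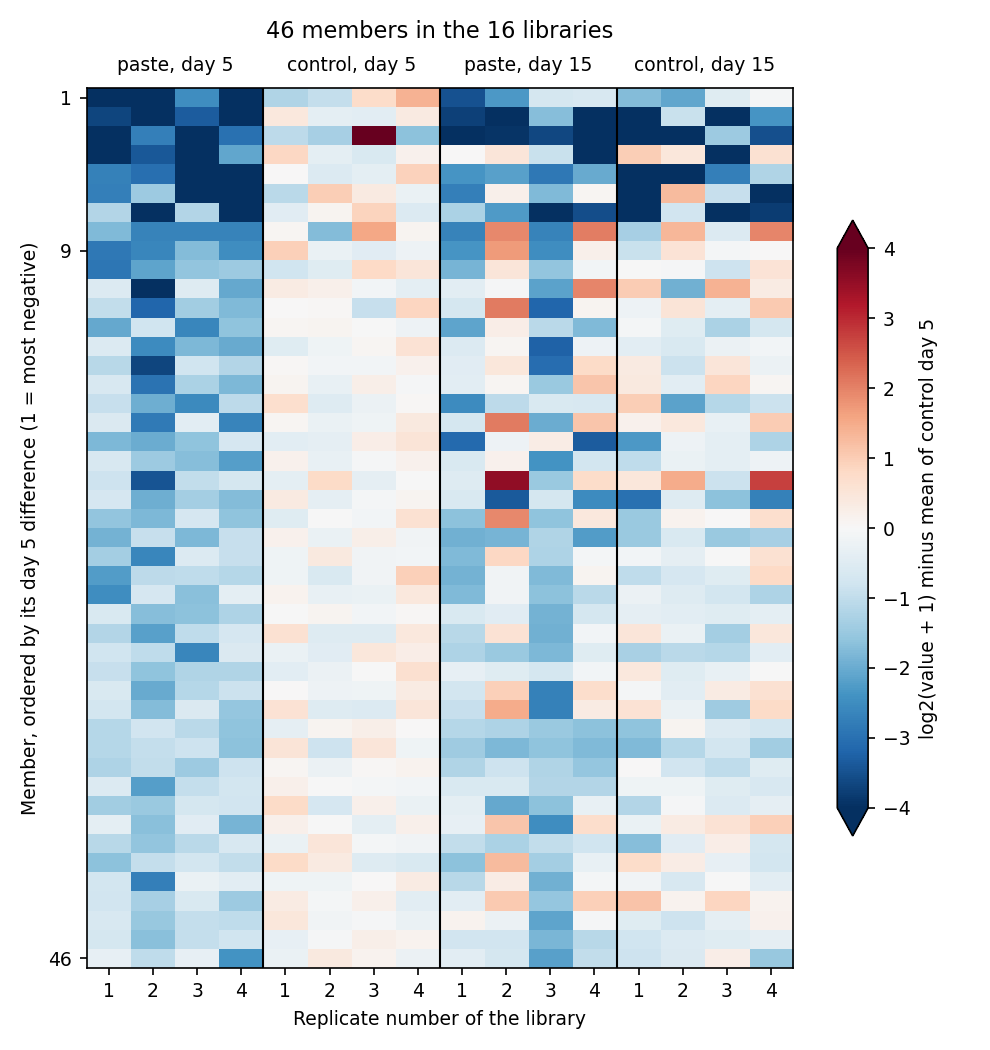
Each row is 1 of the 46 members, ordered from the most negative day 5 difference (row 1) to the least (row 46), and each column is a library, in the order paste and control at day 5, then paste and control at day 15. Colour gives log2(value + 1) minus the member's mean in control day 5, cut at -4 and 4; paste day 15 replicates 1 and 3 are mostly blue, like paste day 5, and replicates 2 and 4 are mixed.

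The member with the highest counts, singled out after its values were seen, was among the 4 called. Its normalized counts were 9190, 18041, 9733 and 17785 in paste libraries of day 5, against 38243, 28231, 39707 and 30805 in day 5 controls. At day 15 they were 8877, 9432, 14586 and 7195 with paste, against 12139, 22030, 12216 and 13605 in controls. All day 5 controls stood above every other library. With paste the counts of the 2 days overlapped, while in controls those of day 15 lay wholly below those of day 5. Its difference from control was -1.38 (SE 0.29) at day 5 and -0.58 (SE 0.29) at day 15 on the log2 scale.

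Another called member, also singled out afterwards, had counts of 1164, 1373, 1001 and 1538 with paste and 2869, 2307, 2813 and 2978 in controls at day 5. At day 15 its counts were 1193, 1538, 1179 and 937 with paste and 2741, 1606, 1351 and 1937 in controls. The groups were far apart at day 5, and at day 15 they overlapped through paste replicate 2 and control replicate 3. It averaged 1269 ± 235 with paste and 2742 ± 298 in controls at day 5 (SD, n = 4 each). At day 15 it averaged 1212 ± 247 with paste and 1909 ± 604 in controls (SD, n = 4 each). Its paste level was nearly the same on both days, and its control level was lower and more spread at day 15. The difference was -1.12 (SE 0.22) at day 5 and -0.63 (SE 0.22) at day 15 on the log2 scale, the second close to the limit of -0.7.

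The member with the most negative difference had low counts. They were 0, 0, 6.06 and 0 with paste and 16.2, 19.4, 64.3 and 102 in controls at day 5. At day 15 they were 2.47, 6.98, 22.9 and 24.1 with paste and 10.9, 8.37, 27.0 and 36.1 in controls. The day 5 difference of -4.59 (SE 0.86) on the log2 scale is thus that of a feature listed at 0 in 3 paste libraries, and its size depends on the constant of 1 added before the logarithm. At day 15 the groups overlapped, with a difference of -0.70 (SE 0.86). That value, -0.6997 before rounding, put it among the 46 by the smallest margin.

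Among members with a mean log2(value + 1) of at least 5, PITA_000006240 and PITA_000032007 had both the most negative difference at day 5 and the most positive at day 15. PITA_000006240 had counts of 366, 895, 72.7 and 107 with paste and 1152, 4795, 3161 and 2036 in controls at day 5. At day 15 its counts were 368, 2807, 713 and 2562 with paste and 80.9, 5820, 1302 and 99.98 in controls. At day 15 the control libraries spanned the whole range of the paste libraries, with replicates 1 and 4 below and replicate 2 above all of them.

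On the log2 scale the difference of PITA_000006240 was -3.43 (SE 1.23) at day 5 and 1.23 (SE 1.23) at day 15. The day 15 value is no larger than its standard error, and its sign depends on the scale. Leaving out 1 library moved it between 0.36 (without control day 15 replicate 1) and 2.41 (without control day 15 replicate 2), with 0.46 when control day 15 replicate 4 was dropped and 0.81 when paste day 15 replicate 2 was. The mean count at day 15 was 1612 ± 1250 with paste and 1826 ± 2723 in controls (SD, n = 4 each), which is slightly lower with paste.

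PITA_000032007 had counts of 390, 19.2, 389 and 47.0 with paste and 633, 946, 1623 and 602 in controls at day 5. At day 15 its counts were 362, 183, 54.4 and 74.3 with paste and 20.2, 515, 38.8 and 62.2 in controls. The day 5 controls stood above all other libraries, and both day 15 groups overlapped paste at day 5. The difference was -2.99 (SE 1.06) at day 5 and 0.83 (SE 1.06) at day 15 on the log2 scale, the second smaller than its standard error. Leaving out 1 library moved the day 15 value between 0.24 (without control day 15 replicate 1) and 1.78 (without control day 15 replicate 2), with 0.34 when paste day 15 replicate 1 was dropped and 0.55 when control day 15 replicate 3 was.

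**Figure D2:**
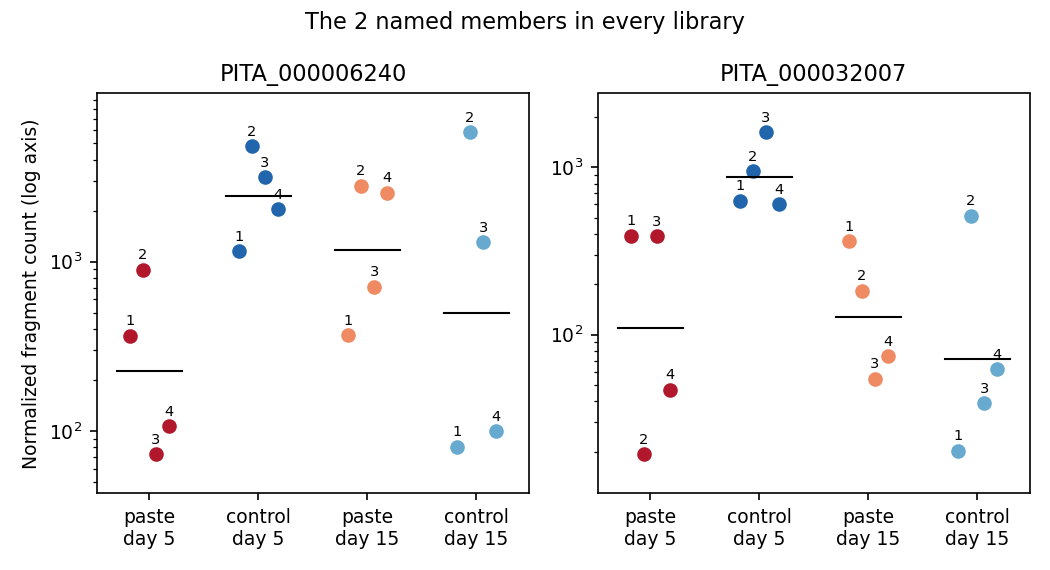
Normalized fragment count on a log axis in each library, with the replicate number above each point and a line at the mean of log2(value + 1). In PITA_000032007 (right) all day 5 controls, 602 to 1623, lie above every other library, and in PITA_000006240 (left) the day 15 controls run from 80.9 to 5820.

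At day 15 the median difference of the members over all 16 libraries was -0.50 on the log2 scale, a 1.41-fold lower level with paste, while the median over all features was -0.02. It was -0.13 without paste day 15 replicate 3, and 0.25, on the other side of 0, with the near-identical libraries left out as well. With all libraries, 41 of the 46 had a negative difference and 5 a positive one. Among the 41, 22 lay at -0.5 or below and 19 above it. The name "at day 5 only" thus fits the rule rather than these means, most of which were lower with paste on both days, by less at day 15. These means include paste day 15 replicate 1, nearly identical to a library that the rule placed below control at day 5. No member lay wholly below or wholly above control at day 15, where 1.72% and 1.91% of all features did.

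No single member passed at day 15 (limma, 0 of 46), nor did any of the 5856 features (0%). At an unadjusted p below 0.05 there were 3 members and 539 of all features, and neither the fit of the day 15 groups alone nor the one with library quality weights called a member. The rule kept the day 15 differences small, so the 0 is no sign that paste had no effect on them. The difference between the paste effects of the 2 days, which the rule also fixed, passed in 0 of 46 members and 0% of all features. Unadjusted p-values below 0.05 numbered 5 among the members and 62 among all features, and the fit with library quality weights gave 0 members as well. Without the near-identical libraries and paste day 15 replicate 3, 2 members passed. The calls over all features for this contrast were not counted in that setting. The 2 thus have no share to be set against, and nothing is read from them.

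The limits of the rule passed through a continuum. The 3 members closest to the day 15 limit had differences of -0.70, -0.70 and -0.68 at day 15, and the 3 nearest features outside it had -0.71, -0.72 and -0.72. At the day 5 limit the nearest members had -1.02, -1.03 and -1.03, and the nearest features outside had -0.9996, -0.998 and -0.996. The members and the 125 other features below control at day 5 thus adjoin at both limits.

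**Figure D3:**
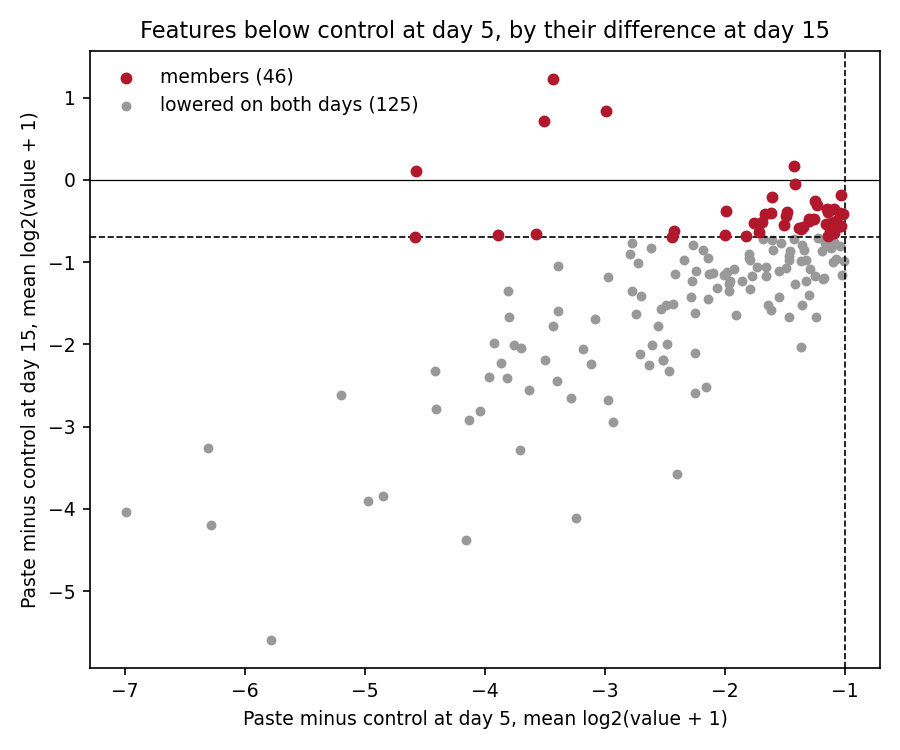
Each point is 1 of the 171 features that met the day 5 criteria, with the difference of paste minus control in mean log2(value + 1) at day 5 on the x axis and at day 15 on the y axis. Dashed lines are the limits of -1 and -0.7; the 46 members lie above the lower dashed line, 5 of them above 0, and the 125 others continue below it without a gap.

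The day 15 mean of the members joined unlike libraries. Set against each member's mean in control day 5, the median over the 46 members was -1.11, -0.08, -1.73 and -0.29 in paste day 15 replicates 1 to 4, against -0.39, -0.44, -0.48 and -0.29 in control day 15 replicates 1 to 4. In the paste libraries of day 5 it was -1.13, -1.94, -1.19 and -1.501. Paste day 15 replicates 1 and 3 were thus at the level of paste day 5, and replicates 2 and 4 were within or above the range of the day 15 controls. Over all features the medians stayed between -0.03 and 0.03 in every library.

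Counted member by member, 40 of the 46 lay below the whole control range of day 5 in paste day 15 replicate 1, and 44 did in replicate 3. In replicate 2 there were 19 below that range and 14 above it, and in replicate 4 there were 21 below and 8 above. Of all features, 27.7%, 28.3%, 36.9% and 30.2% lay below that range in replicates 1 to 4, and 30.9% in replicate 2 and 31.6% in replicate 4 lay above it. The 14 members above it in replicate 2, 30.4% of the 46, were thus at the share of all features. The rule picked high day 5 controls, which favours levels below their range in any day 15 library. In the day 15 controls 47.8% to 60.9% of the members lay below it, against 41.3% and 45.7% in paste replicates 2 and 4. The rule also placed the near-identical library of paste replicate 1 below that range. Nothing is thus read from the counts below it. Against the control range of day 15, 22, 6, 31 and 9 members lay below it in paste replicates 1 to 4, and 0, 17, 1 and 6 lay above it. Of all features, 23.3%, 16.9%, 38.0% and 21.7% lay below the day 15 range in replicates 1 to 4. Above it lay 21.7%, 18.7%, 35.5% and 19.4% of all features, where 37.0% of the members did in replicate 2 and 0% in replicate 1. Among the 4 paste libraries, 23 of the 46 members were lowest in replicate 3, where 40.0% of all features were. In replicate 2, 23 were highest, where 27.7% of all features were. The day 15 limit of the rule used the mean of these libraries, which favours members that are high in 1 of them. The shares in replicate 2 are thus a description, and nothing is read from them. The spread of the paste day 15 libraries was wide, with a median SD of 1.12 on the log2 scale over the members, against 0.60 in day 15 controls. Over all features it was 0.65 with paste and 0.44 in controls.

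Replicate 1 of paste day 15 was the library nearly identical to replicate 1 of paste day 5. Between them the members differed by a median of 0.21 on the log2 scale, against 0.48 to 1.73 in the other 15 pairings of a paste day 15 with a paste day 5 library. Without both libraries the median day 15 difference of the 46 members was -0.31. With paste day 15 replicate 3 left out as well it was 0.25, which reverses the sign. That last value rests on replicates 2 and 4 alone, and leaving out libraries for their likeness to day 5 itself moves it in this direction. Keeping replicate 1 moves the median over all libraries the other way. The rule placed its near-identical library of day 5 below control. Whether the libraries left out carry the wrong label was not tested.

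**Figure D4:**
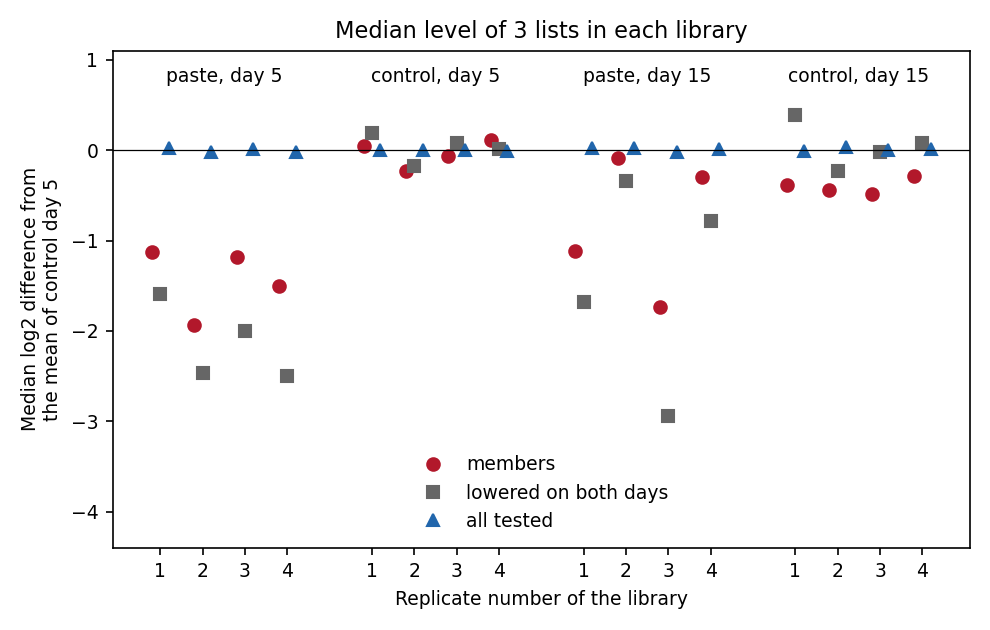
For each library, the median over a list of features of log2(value + 1) minus the feature's mean in control day 5, for the 46 members, the 125 features lowered on both days and all 5856 tested. In both lowered lists paste day 15 replicates 1 and 3 lie as low as the paste day 5 libraries; in day 15 controls the members lie at -0.29 to -0.48.

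The narrowing between day 5 and day 15 had a part in each treatment. The paste effect was less negative at day 15 by a median of 0.97 on the log2 scale, and it was smaller in size in all 46 members, which the rule favours. With paste, the median member was higher at day 15 than at day 5 by 0.61 on the log2 scale, and 37 of 46 members were higher. That median was 0.29 without paste day 15 replicate 2, 0.96 without paste day 15 replicate 3 and 0.28 with a day 5 limit of -0.8. In controls, the median difference of day 15 minus day 5 was -0.39, and 36 of 46 were lower. Over all features both medians were 0.02. High day 5 controls and low day 5 paste libraries were what the rule picked, and either would favour such differences, so nothing is read from their direction.

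In 27 members both held, higher with paste and lower in controls at day 15. In 10 members the level was higher at day 15 in both treatments, and in 9 it was lower in both. The paste part was the larger of the 2 in 26 members and the control part in 20. The 9 members with day 5 differences of at least 2 had medians of 1.69 with paste and -2.29 in controls over time, against 0.57 with paste and -0.35 in controls for the other 37. The split was made on the day 5 difference, while the rule set a limit on the day 15 difference. A wide narrowing was thus fixed in advance for the 9, which favours larger changes over time, and nothing is read from this comparison. The 9 also had lower counts, with a median of 25.7 for the mean count, against 108 in the other 37.

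Same-numbered control libraries of the 2 days deviated together, so the control part is also given pair by pair. The rule picked features with high day 5 controls, which favours a lower day 15 level in every pair, and the values are a description that supports nothing. The median difference of day 15 minus day 5 over the members was -0.42, -0.21, -0.49 and -0.47 on the log2 scale in control replicates 1 to 4, against -0.01, 0.00, 0.00 and 0.02 for all features. In 16 of the 46 members all 4 pairs were lower at day 15, where 16.2% of all features were, and in 1 member all 4 were higher, where 16.9% were. In 8 members the day 15 controls lay wholly below the day 5 controls, where 6.93% of all features did, and in 0 members wholly above, where 6.25% did. In the fit of all libraries no member and no feature passed between the days in controls (limma, 0 of 46 and 0%, smallest adjusted p of a member 0.195), and 11 members and 585 features had an unadjusted p below 0.05. Fitted on the 8 control libraries alone, limma called 1 member lower at day 15 beside 1.16% of all features in either direction, and 0 members beside 0.768% with the replicate number as a block.

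With paste no member and no feature passed between the days either (limma, 0 of 46 and 0%, smallest adjusted p of a member 0.819), and 5 members and 214 features had an unadjusted p below 0.05. Only 1 member lay wholly higher at day 15 than at day 5 with paste, where 0.359% of all features did. The near-identical libraries stand on both sides of that comparison. That member, a transcript model singled out afterwards, had counts of 14.3 to 22.03 with paste at day 15 and 7.20 to 12.1 with paste at day 5.

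The 5 members above control at day 15 had lower control levels at day 15 in common. Their difference of day 15 minus day 5 was -3.96 to -1.97 on the log2 scale in controls, while with paste it was -0.37 to 2.38. Among the 41 others the control difference over time ran from -3.47 to 0.96, with a median of -0.35. PITA_000006240 and PITA_000032007 were among the 5. The other 3 were singled out after their values were seen, and 2 of them had mean counts of 5.96 and 26.3. Setting these 5 apart follows from the day 15 values themselves and is a description.

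**Figure D5:**
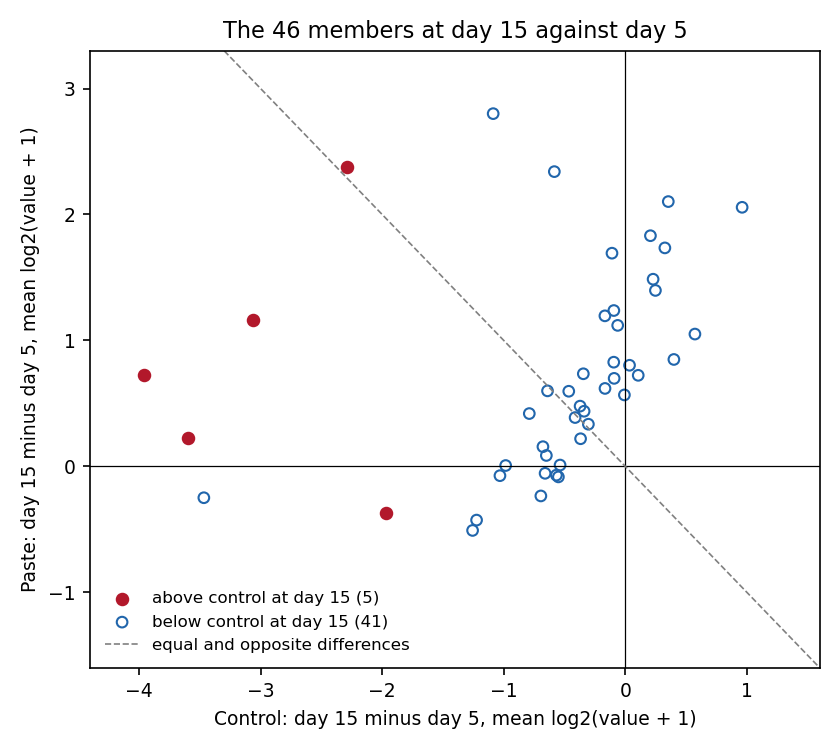
Each point is a member, with the difference of day 15 minus day 5 in mean log2(value + 1) in controls on the x axis and with paste on the y axis; on the dashed line the 2 are equal and opposite. The 5 members above control at day 15 (filled) all lie at -1.97 or lower on the x axis, and the 41 others (open) have medians of -0.35 on the x axis and 0.60 on the y axis.

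The 125 features with a day 15 difference of -0.7 or less were the most similar list, and they were set beside the members for what differed. The median difference at day 5 was -1.40 in the members and -2.25 in that list on the log2 scale, and at day 15 it was -0.50 in the members and -1.35 in that list. With paste the median of day 15 minus day 5 was 0.61 in the members and 0.71 in that list. In controls it was -0.39 in the members and -0.01 in that list. The rule parts the lists by the day 15 difference, which favours lower day 15 controls among the members, and no test was made. In paste day 15 replicates 1 to 4 the list had medians of -1.68, -0.34, -2.94 and -0.78 against control day 5, the same order of libraries as in the members.

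Over the 8 libraries of day 15, the median Pearson correlation between 2 members was 0.26, and 70.9% of pairs of members had a positive one. For the 125 features it was 0.66, with 96.1% of pairs positive, and for all tested features it was 0.00. Over the 8 control libraries the order of the lists was the other way, with medians of 0.16 for the members and 0.07 for the 125 features. The points are 8 libraries that share the paste and control grouping, and the members are not independent of one another. The rule parts the lists by the day 15 difference, which favours higher correlations among the 125 features over the day 15 libraries. It also favours lower day 15 controls among the members, and with them higher correlations over the controls. The difference between the lists is thus a description without a test, and nothing is read from it.

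The members covered a wide range of counts. The mean over the 16 libraries was under 20 in 10 members, 20 to 200 in 19 and 200 or more in 17, with a median of 63.6 against 180 for all tested features. In 6 members at least 1 paste library of day 5 was at 0, and in 12 every paste library of day 5 was under 10. All 46 passed the filter on low values by the rule, and 41 had counts of at least 10 in every day 5 control. A member with low counts could pass through the group where it was high, so no count over them is read as support. In 23 members every library reached 10.

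The identifiers of the members differed in kind. A locus identifier with the prefix PITA was carried by 29 members (63.0%) and one with the prefix PITAhm by 8 (17.4%), against 68.4% and 23.3% of all tested features. The other 9 (19.6%) were transcript models named after assembled transcripts, against 8.35% of all tested features and 4.80% of the 125 features lowered on both days. The rule did not use the kind of identifier directly. Its filter on low values changed the shares, and applied to the members, the 125 features and all tested features alike. Transcript models were 16.3% of all 8949 features, before the filter. Members also had lower counts than all tested features, with a median of 63.6 against 180. Counts were not compared by kind of identifier, so the shares may not be independent of the rule. No test was made of them, and why they differ was not tested. For 2 of the 9, another alignment of the same transcript stands in the files as a feature of its own, and fragments may have been split between the copies. In 1 of these the other alignment passed the filter, and the mean count was 11.6 for the member and 77.1 for the other alignment. The day 5 difference was -1.62 for the member and -0.13 for the other alignment.

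A transcript model with a day 5 difference of -3.58 was the 1 member that the files mark as low in data. Its counts were 0.257, 2.23, 0.989 and 6.97 with paste and 58.9, 24.8, 21.3 and 36.8 in controls at day 5. At day 15 they were 33.0, 46.7, 17.0 and 0.450 with paste and 65.2, 45.4, 0.637 and 50.4 in controls. In the near-identical libraries, paste replicate 1 of both days, it was at 33.0 on day 15 and 0.257 on day 5, the largest gap of any member between them, 4.76 on the log2 scale. The day 5 paste libraries lay below all day 5 controls, while at day 15 each group held 1 library under 1.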

How the data were processed

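RNA of 16 libraries, 4 per treatment and day as the sample titles give them, was sequenced single-end on an Illumina HiSeq after ribosomal RNA depletion, per the labels' protocols. The submitters' processing notes name FastQC, Trimmomatic 0.32, HISAT2 2.0.4 and Cufflinks 2.1.1. No source used here gives the build, the annotation, the strand setting or the treatment of multiply mapped reads.

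Per the file headers, the authors deposited a normalized signal: estimated fragments per feature, scaled by 1 factor for each library. What 1 fragment is worth in a library, its step, was read from the low values and was 0.688 to 1.56; the library's sum over it gave the estimated fragments. Some values were fractions of a step, so no count test was run.

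The rule was applied to log2(value + 1). All 5856 features that reached 10 in 4 or more libraries entered limma 3.58.1 in R 4.3.3 (4 group means, intensity trend, robust variances, two-sided p-values, Benjamini-Hochberg over all features of a contrast, threshold 0.05). The fit was tested on simulated independent libraries of equal dispersion, with changes in paste day 5 only. Near-identical libraries, paired controls and unequal spread were not simulated, so that test does not cover them. Fold changes on this scale understate changes of low features. P-values measure the spread between libraries, which the labels call biological replicates.

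The members and lists were chosen with earlier results of these data known. The features printed by identifier are the 2 members with the most negative day 5 difference and the 2 with the most positive day 15 difference among those with a mean log2(value + 1) of at least 5; both parts gave the same 2, and other members are described without identifier because the files pair none with a name. Gene lists by function could not be run for the same reason. Same-numbered control libraries of the 2 days deviated together from their group means (correlations of 0.245 to 0.559 across features, each highest with its own number), so the numbers were taken to pair controls over time. Paste and control libraries of the same number did not (-0.378 to 0.130), and of the paste libraries of the 2 days only the near-identical replicate 1 did (0.577, against -0.311 to -0.201 for the other 3 numbers). Alternatives were the pseudocount, the scaling, the filter, the groups fitted, library weights, the replicate block, the limits of the rule, and leaving out libraries.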

Additional observations from a re-analysis of the deposited data

Results flagged for a closer look

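Of 16 groups of 4 values examined, 2 held a value far from the other 3. For normally distributed values, chance alone gives about 1 in 20 groups. That rate need not hold for counts taken without a logarithm, where a high value stands out more. PITA_000032007 was at a normalized count of 515 in control day 15 replicate 2, against 20.2 to 62.2 in the other day 15 controls. The depth of control day 15 replicate 1 was 3324244 estimated fragments, where its group otherwise had 4548742 to 4798066.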

How the results depend on the processing

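The number of features meeting the rule depended on its limits and on single libraries. It was 46, and 72 with a day 5 limit of -0.8, 24 with a day 15 limit of -0.5, 125 without the near-identical libraries and 273 with paste day 15 replicate 3 left out as well. Leaving out 1 library gave 21 (paste day 15 replicate 2) to 133 (paste day 5 replicate 1). It also gave 86 without paste day 15 replicate 3, 85 without paste day 5 replicate 4 and 70 without control day 5 replicate 3. Fewer libraries in a day 5 group make it easier for the groups not to overlap. Of the 46, 43.5% were found again without paste day 15 replicate 2 and 65.2% with scaling to the library total.

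The median day 5 difference was -1.12 and -1.67 with day 5 limits of -0.8 and -1.2. Without the near-identical libraries and paste day 15 replicate 3, the median day 15 difference reversed to 0.25 (leaving out 1 library gave -0.75 to -0.13). The median over time with paste was then 1.21 (leaving out 1 library gave 0.29 to 0.96). In that setting 2 members passed for the difference of the paste effects, and the calls over all features were not counted. Nothing is read from the 2, and the cause of these shifts was not tested.

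Members called lower at day 5 numbered 4, beside 37 of all features called in either direction. Both counts often moved in the same direction, but not in every alternative. They went to 5 beside 32 with a pseudocount of 4 and to 2 beside 46 without paste day 5 replicate 4. They were 2 beside 24 with a pseudocount of 0.5, 2 beside 18 with no filter, 7 beside 102 with only the day 5 groups fitted and 17 beside 421 with library quality weights. They were 1 beside 14 without the near-identical libraries and 17 beside 513 with paste day 15 replicate 3 left out as well. Leaving out 1 library gave 0 (any day 5 control, or paste day 5 replicate 2) to 9 (paste day 15 replicate 3). With the replicate number as a block in the fit of all libraries, 1 member was called lower at day 5 beside 21 of all features; these numbers do not pair paste with control. At day 15, 0 members passed in all 28 alternatives. The differences of PITA_000006240 and PITA_000032007 kept their direction in all 25 alternatives, which is no support. The rule chose the direction at day 5, and leaving out a day 5 library could not change the day 15 values. Leaving out 1 library of day 15 moved these values between 0.36 and 2.41 for PITA_000006240 and between 0.24 and 1.78 for PITA_000032007. All 25 used a log2 scale, while the mean count of PITA_000006240 at day 15 was slightly lower with paste. A count test with edgeR was planned and not run, because the values are not counts.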
